A study of Mus musculus with 10 samples.

Results

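Antisense loci are genes annotated on the strand opposite to another gene, most often a protein-coding gene. They were followed here in inguinal white adipose tissue of mice with Tcf7l2 deleted in fat and of their controls, and each was set beside the protein-coding gene that it overlaps (its partner). Members were the genes of type antisense in GENCODE release M21 with at least 10 counts in at least 5 of the 10 libraries, which gave 478 of the 2715 antisense genes in the count table and of its 52636 gene identifiers. The members were chosen by their counts, and the rule itself was set with earlier results of these data known. Of the members, 3 reached the minimum through the controls only, with no knockout at 10 counts, and 0 through the knockouts only. Neither kind was among the members called changed. Members that met the rule in the controls and also had 10 counts in some knockouts are not in this count. Some members called lower may therefore have passed mainly through the controls. The 34 members just inside the minimum, with 10 counts in exactly 5 libraries, had a median of 100 counts over all libraries (78 to 920), and the 47 antisense genes just outside it, with 4 such libraries, a median of 88 (68 to 125). Of those just outside, 7 had their 10 counts in controls only and 0 in knockouts only.

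The study compared 5 controls, whose Tcf7l2 alleles were floxed (F/F, written TCF7L2F/F in the protocol) and whose genotype label reads wild type, with 5 knockouts that carried the same floxed alleles and in addition Adp-Cre, a Cre recombinase directed to fat. All mice were C57BL/6, 6 months old and fed a 65% high-fat diet, for 16 weeks per the diet label, 12 weeks per the descriptions and 4 months per the treatment protocol. Tcf7l2 encodes a transcription factor that binds DNA together with beta-catenin at the end of the Wnt signalling pathway. It was at 10.7 ± 0.909 CPM in controls and 5.83 ± 0.311 CPM in knockouts (mean ± SD, n = 5 each), 54.7% of the control level, and the ranges did not overlap (log2 fold change -0.87, SE 0.10, adjusted p = 0.00061). CPM here are counts scaled to a common library total with TMM factors, and fold changes with adjusted p come from edgeR's quasi-likelihood test over all tested genes, with a call at an adjusted p below 0.05. Cells that do not express the Cre keep Tcf7l2. Each title holds a different number, which may be that of the mouse, but no label states it. If libraries share a mouse, the spread behind the p-values may be technical. The library numbers run through the controls first and then the knockouts, so genotype cannot be told apart from any order of handling that followed them.

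Antisense transcription is common in mammalian genomes. Some antisense RNAs act on the gene that they overlap, as imprinted antisense RNAs do when they silence genes in cis, others start from the same open promoter as the gene on the other strand, and for most no function is known. Many are kept in the nucleus at low levels, and many lie within the introns of their partner, so that RNA of the partner before splicing covers the same bases. A strand-marking library kit can tell the strands apart, but only if the reads are then counted by strand.

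The sequences of a few members are printed as examples, and they do not stand for all members. The first group are windows of 300 bases, 250 before and 50 after the start of transcription, read 5′ to 3′ on the strand of the antisense gene from RefSeq on GRCm38.p6. Capitals mark CG dinucleotides, which are dense in many promoters that are active in most tissues. Kcnq1ot1 and Gm15713 start inside their partners Kcnq1 and Zbtb20, 9530026P05Rik runs from the start of Adamts9 away from it, and Gm12758 was the only member called lower with a CpG-rich window among the 13 that had a window. All 4 were called lower in the knockouts. Gm12758 was picked for its window after the calls were seen, and its values are not given below.
Kcnq1ot1 (chr7:143296498-143296797, - strand): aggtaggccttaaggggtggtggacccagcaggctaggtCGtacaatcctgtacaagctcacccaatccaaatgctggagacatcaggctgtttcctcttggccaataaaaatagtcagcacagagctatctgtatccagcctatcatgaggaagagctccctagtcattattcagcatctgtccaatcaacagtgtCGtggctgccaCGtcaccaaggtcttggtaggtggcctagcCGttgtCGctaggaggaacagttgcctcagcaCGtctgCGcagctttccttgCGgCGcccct
Gm15713 (chr16:43420147-43420446, - strand): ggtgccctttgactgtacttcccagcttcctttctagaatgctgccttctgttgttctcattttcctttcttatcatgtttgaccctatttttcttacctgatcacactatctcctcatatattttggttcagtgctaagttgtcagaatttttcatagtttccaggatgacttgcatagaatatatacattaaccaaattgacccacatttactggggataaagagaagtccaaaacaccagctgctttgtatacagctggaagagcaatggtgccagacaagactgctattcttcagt
9530026P05Rik (chr6:92940332-92940631, + strand): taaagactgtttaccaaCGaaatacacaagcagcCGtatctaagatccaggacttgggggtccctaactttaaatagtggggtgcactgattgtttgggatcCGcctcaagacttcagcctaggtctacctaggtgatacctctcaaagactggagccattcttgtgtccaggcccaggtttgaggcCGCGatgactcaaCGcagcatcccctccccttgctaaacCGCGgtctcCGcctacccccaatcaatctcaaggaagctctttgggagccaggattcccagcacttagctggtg
Gm12758 (chr7:34234127-34234426, + strand): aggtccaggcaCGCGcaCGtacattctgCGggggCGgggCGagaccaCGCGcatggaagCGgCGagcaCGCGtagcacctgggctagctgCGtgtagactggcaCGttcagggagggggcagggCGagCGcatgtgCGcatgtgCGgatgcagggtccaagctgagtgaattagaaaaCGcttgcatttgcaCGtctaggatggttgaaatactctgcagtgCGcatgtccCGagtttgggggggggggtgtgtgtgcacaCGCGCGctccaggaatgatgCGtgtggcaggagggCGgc
The window of Gm15713 held 0 CG dinucleotides, those of Kcnq1ot1 and 9530026P05Rik held 9 each, and that of Gm12758 held 27.

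The second group are the first 240 bases of the RNA of 2 members that lie wholly in introns of genes of fat cell biology, as given in the GENCODE M21 transcripts. Gm44079 is an RNA of 529 bases on the strand opposite to Pparg, the nuclear receptor that drives fat cell formation, and BB365896 is an RNA of 3000 bases on the strand opposite to Fam13a, a gene linked to the distribution of body fat. None of their exonic bases is shared with an exon of another gene, so every base printed here could be counted, and every base also lies within the body of the partner.
Gm44079 (chr6:115451815-115464990, - strand): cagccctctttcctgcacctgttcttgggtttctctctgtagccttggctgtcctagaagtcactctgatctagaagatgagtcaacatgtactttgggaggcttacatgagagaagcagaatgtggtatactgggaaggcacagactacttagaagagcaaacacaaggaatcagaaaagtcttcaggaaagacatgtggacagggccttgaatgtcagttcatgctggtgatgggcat
BB365896 (chr6:58965655-59002083, + strand): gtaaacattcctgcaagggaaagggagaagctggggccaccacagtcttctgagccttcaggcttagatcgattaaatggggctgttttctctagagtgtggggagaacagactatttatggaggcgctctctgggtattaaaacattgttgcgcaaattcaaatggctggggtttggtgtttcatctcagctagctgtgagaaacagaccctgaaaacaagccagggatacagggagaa

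Whether counts on these loci can be read as antisense RNA was examined first, from the counts themselves. Of 440 genes whose exonic bases all lie under exons of genes on the other strand, 15 (3.41%) had any count. For genes covered in the same way on their own strand the number was 41 of 674 (6.08%). Among antisense genes, 3 of 68 covered ones (4.41%) had any count, against 977 of 1097 (89.1%) with no exonic base under another gene. In 40 of the covered antisense genes the covering protein-coding gene had over 1000 counts, and 2 of these 40 had any count. The counts therefore behave as though strand was not used and reads that overlap exons of 2 genes were dropped, whichever strand the second gene is on. Reads from a partner's unspliced RNA and from the antisense RNA cannot be told apart in them, and a member's counts come only from its own bases, the exonic bases that lie under no exon of another gene. The members had a median of 1548 own bases of 1896.5 exonic bases, and the lowest number was 206.

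Most members were expressed at low levels. The median of the 457 that passed the filter on low counts (21 members did not) was 1.49 CPM in controls and 1.165 CPM in knockouts. In the controls 15 members were above 10 CPM and 137 below 1 CPM. Per kilobase of own bases, the median was 1.11 CPM for all 457 tested members. It was 8.09 CPM for the partners in the 409 pairs with both genes tested. Within a pair the member stood at a median of 15% of its partner's level per kilobase in controls, and it was above its partner in 36 pairs. The highest level per kilobase was that of Gm10851, inside the glycolysis regulator gene Pfkfb3, at 26.7 CPM per kilobase. Ctcflos, over the start of Ctcfl, followed Gm29237 of the Sptbn1 locus with 17.2 CPM per kilobase, and Tug1, a long non-coding RNA at the start of Morc2a, had 11.5 CPM per kilobase. Tug1 varied little between libraries, though members were not ranked by this. It was at 108, 100.1, 90.5, 104 and 93.1 CPM in controls 1 to 5 and at 99, 92.2, 93.9, 96.3 and 89.4 CPM in knockouts 1 to 5. The ranges overlapped, with a log2 fold change of -0.07 (adjusted p = 0.42, SE 0.06). These 4 genes were picked for their level after their values were seen.

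Antisense loci shifted downward as a group in the knockouts. Of the 457 tested members 54 were called changed (11.8%), 8 higher and 46 lower. Over all 15927 tested genes 12.9% were called, 5.84% higher and 7.05% lower, so the share of members called was near the background while the directions were not: 1.75% of members were called higher and 10.1% lower. The median log2 fold change of the members was -0.30, against 0.00 over all tested genes, and 355 members (77.7%) had a negative value. The ranges of the groups did not overlap in 28 members that were lower and 4 that were higher in the knockouts, and over all genes 8.99% had such ranges, 4.45% lower and 4.55% higher. Summed over all members, antisense counts made up 1589, 1727, 1404, 1706 and 1190 CPM in controls 1 to 5, and 1315, 1228, 1320, 1269 and 1165 CPM in knockouts 1 to 5 (counts over the library total, without TMM factors). Control 5 lay within the range of the knockouts and the other 4 controls above it, and the mean of the knockouts was 82.7% of that of the controls. In bulk tissue fewer cells of a type and less RNA per cell cannot be told apart.

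Several other non-coding types were shifted downward too, and coding genes were not. Protein-coding genes had a median log2 fold change of 0.02, with 897 called higher and 779 lower of 13542. The median was -0.19 for 367 intergenic long non-coding RNAs (lincRNA, 5 higher and 36 lower) and -0.14 for 220 processed transcripts (2 higher and 12 lower). Processed pseudogenes were near the value of all genes, with a median of -0.05 (222 tested, 7 higher and 16 lower). The median was lowest for sense_intronic genes, at -0.79 (86 tested, 0 higher and 31 lower), and for TEC genes, at -0.70 (700 tested, 1 higher and 192 lower). TEC genes are mostly single-exon loci whose coding status is to be experimentally checked, and the type does not state a place within an intron. Among TEC and sense_intronic genes inside a protein-coding gene, 550 on that gene's own strand had a median of -0.79 and 87 on the other strand -0.61. The antisense loci thus lay between the coding genes and the TEC and sense_intronic genes, and the plot of fold changes by gene class shows this order.

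**Figure D1:**
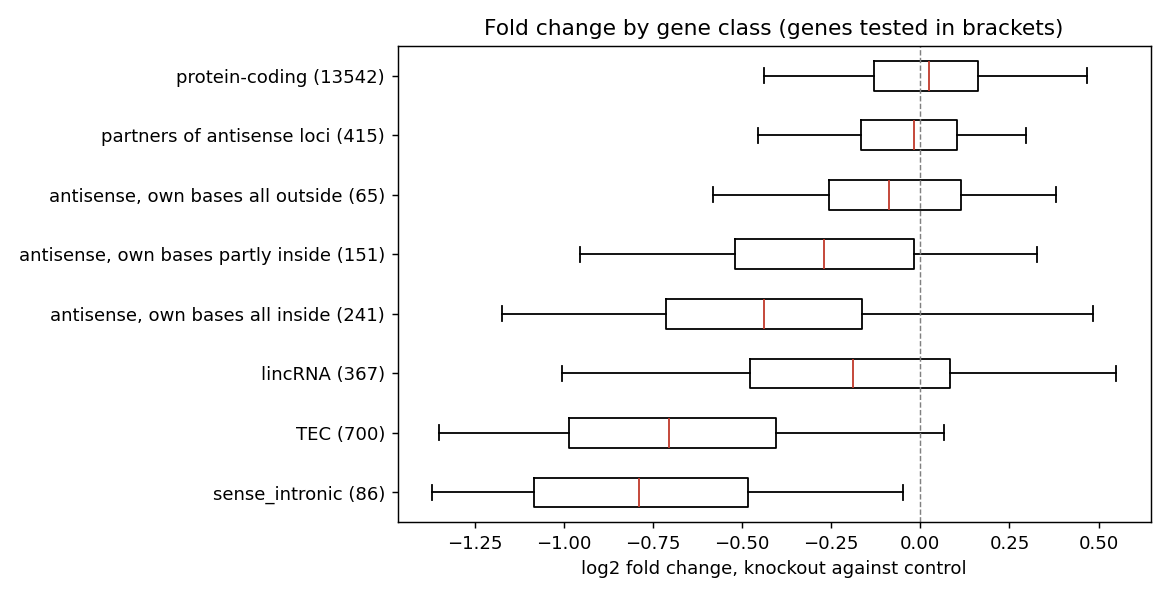
Log2 fold change (knockout against control, horizontal axis) by gene class, with the number of tested genes in brackets. Boxes span the quartiles with the median in red, and whiskers run from the 5th to the 95th percentile; medians fall from 0.02 for protein-coding genes to -0.44 for antisense loci whose own bases all lie inside another gene and -0.79 for sense_intronic genes.

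Members inside other genes had the lowest values. When the members were divided by where their own bases lie, a division chosen after the data were seen, the 241 tested members with all own bases inside the body of another gene had a median log2 fold change of -0.44, with 5 called higher and 32 lower. The 151 with own bases partly inside had a median of -0.27 (1 higher and 12 lower), and the 65 with all own bases outside had -0.09 (2 higher and 2 lower). The difference between these medians was not tested. By the kind of overlap with the partner, the 217 members inside the partner had a median of -0.44 (5 higher, 30 lower), the 113 over its start -0.20 (1 higher, 9 lower), the 88 over its end -0.27 (0 higher, 6 lower), the 17 that contain it -0.21 (2 higher, 0 lower) and the 22 without a partner -0.10 (0 higher, 1 lower). Of the members with a partner, 285 that share exonic bases with it had a median of -0.28, and 150 that do not had -0.41, a difference that was not tested either.

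Libraries differed in the level of TEC and sense_intronic genes, and this varied with the genotype. A score of the 786 tested TEC and sense_intronic genes (mean log2 CPM) was 1.08, 1.27, 0.727, 1.20 and 0.382 in controls 1 to 5, and 0.441, 0.220, 0.464, 0.363 and 0.056 in knockouts 1 to 5. This is called the intronic score below, though its TEC genes are not defined by a place in an intron. Control 5 again lay among the knockouts, and the other 4 controls lay above them all. The mean level of members inside other genes ran in nearly the same order, from 0.705 in knockout 5 to 1.32 in control 2, with only knockouts 1 and 3 in reverse order (mean log2 of CPM + 0.5). Members outside other genes spanned a smaller range, from 1.21 to 1.36, but controls 1 to 4 again lay above all knockouts, and control 5 was the lowest library. With the score as a covariate in edgeR, 0 of the 457 members were called, 34 had an unadjusted p below 0.05 and the median was 0.04. In that fit 0.308% of all tested genes were called. The medians by position then were 0.02 for members inside other genes, 0.03 for those partly inside and 0.13 for those outside. Since the score is itself lower in the knockouts, what goes with genotype and what goes with the level of TEC and sense_intronic genes cannot be told apart here.

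**Figure D2:**
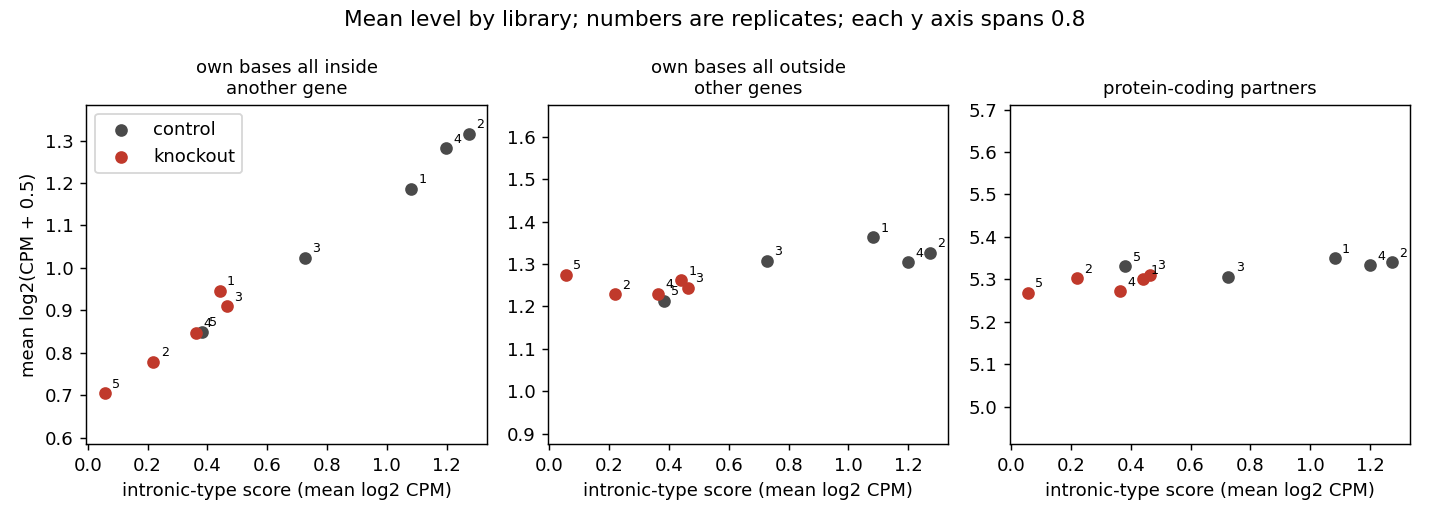
Mean log2(CPM + 0.5) per library (vertical axes, each spanning 0.8) against the score of TEC and sense_intronic genes (mean log2 CPM, horizontal axes), for members inside other genes, members outside other genes and protein-coding partners, with 5 controls in grey and 5 knockouts in red, numbered by replicate. Members inside other genes rise from 0.705 to 1.32 along the score with control 5 among the knockouts, while members outside span 1.21 to 1.36, with controls 1 to 4 again above the knockouts, and partners 5.27 to 5.35.

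The number of calls also depended on single libraries. Without control 5 the count of changed members was 106, without control 1 or control 2 it was 16 each, without control 4 it was 19, and without knockout 2, 4 or 5 it was 26, 33 or 20. The share of all tested genes called moved with it. Without control 5 it was 19.1% (22.4% of the members), without control 1 3.49% (3.47%), without control 2 3.33% (3.43%) and without control 4 5.61% (4.04%). Without knockout 2 it was 6.17% (5.51%), without knockout 4 10.3% (6.98%) and without knockout 5 5.45% (4.20%). By other tools on all 10 libraries, DESeq2 called 58 members and limma-voom with quality weights 97, where 16.8% and 22.6% of all genes were called. Some 14 members were called in all 10 fits that leave out a library, and these are Gm9968, Dnm3os, Gm13111, Egfros, Pard3bos1, B430119L08Rik, BB365896, Gm26789, A530020G20Rik, 9530026P05Rik, Gm28988 and Kcnq1ot1 among those that were lower, and Gm10851 and Gm36640 among those that were higher. The share of all tested genes called in every such fit was not counted, so these 14 cannot be set against a background. Endothelial markers were lower in the knockouts (5 of 5 called, summed to 721 to 922 CPM per control and 591 to 681 CPM per knockout), and T cell markers (4 of 5 called, 6.08 to 11.6 against 9.42 to 66.7 CPM) and B cell markers (4 of 5 called, 6.05 to 18.9 against 11.0 to 286 CPM) higher. Fat cell markers had 1 of 5 called higher (21220 to 27129 against 23574 to 32219 CPM), and 0 of 5 macrophage, progenitor or skeletal muscle markers were called. Epithelial markers were at or near 0, at most 1.13 CPM. The part of these cells in the antisense results was not tested.

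Among antisense RNAs with names of their own, the 2 imprinted ones and Dnm3os were lower in the knockouts. Kcnq1ot1 (ENSMUSG00000101609, chr7:143203458-143296549, - strand), which is transcribed from the paternal chromosome and silences neighbours of the potassium channel gene Kcnq1 in cis, was at 135, 162, 95.3, 153 and 64.2 CPM in controls 1 to 5 and at 63.7, 61.1, 71.1, 64.1 and 49.6 CPM in knockouts 1 to 5. Control 5 lay among the knockouts and the other controls above them. Its log2 fold change was -0.98 (adjusted p = 0.016, SE 0.21), from 122 ± 41.1 CPM in controls and 61.9 ± 7.81 CPM in knockouts (mean ± SD, n = 5 each). It is annotated as a locus of 91973 own bases, all inside the body of Kcnq1, and per kilobase it was at 1.33 CPM beside 1.17 CPM for Kcnq1. Kcnq1 itself was not called, at 4.67 and 4.56 CPM (log2 fold change -0.03, adjusted p = 0.92, SE 0.18). With the intronic score as a covariate the log2 fold change of Kcnq1ot1 was -0.02 (adjusted p = 0.95).

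Airn (ENSMUSG00000078247, chr17:12741311-12860136, + strand), the imprinted RNA that runs over the start of Igf2r and silences it on the paternal chromosome, was at 9.4, 11.5, 8.11, 9.53 and 8.32 CPM in the controls and at 7.07, 6.57, 6.6, 7.23 and 5.2 CPM in the knockouts. All 5 knockouts lay below all 5 controls, with a log2 fold change of -0.52 (adjusted p = 0.023, SE 0.13). Igf2r, the receptor that carries the growth factor Igf2 to lysosomes, was at 213 and 188 CPM and was not called (log2 fold change -0.18, adjusted p = 0.13, SE 0.08). The difference in the log2 ratio of Airn to Igf2r was -0.31 (exact permutation p = 0.0079), the smallest p that 5 against 5 libraries allow. Airn was called in 5 of the 10 fits without a library, with adjusted p up to 0.068 without control 2.

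Dnm3os (ENSMUSG00000078190, chr1:162217623-162225550, + strand), an antisense RNA within the dynamin gene Dnm3 that gives rise to microRNAs, was at 11.4, 12.4, 11.4, 14.3 and 10.1 CPM in the controls and at 8.39, 6.69, 7.59, 8.83 and 7.05 CPM in the knockouts. The groups did not overlap and the log2 fold change was -0.63 (adjusted p = 0.0096, SE 0.12). Dnm3 fell as well, from 16.4 to 12.8 CPM (log2 fold change -0.36, adjusted p = 0.035, SE 0.10). The ratio of the pair differed by -0.25 (exact permutation p = 0.095).

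Another 5 named antisense RNAs, most of them in homeobox loci, were not called by edgeR. The log2 fold change was -0.29 (adjusted p = 0.39, SE 0.22) for Emx2os, -0.24 (adjusted p = 0.54, SE 0.25) for Hoxaas3 and 0.26 (adjusted p = 0.39, SE 0.20) for Zeb2os. Hoxd3os1 and Hoxb3os differed least, with log2 fold changes of -0.02 and -0.01 with SE of 0.19 and 0.24. Of the symbols listed for this group, 9 were members, 7 were antisense genes below the count minimum (Tsix and Nespas among them), 21 were of another type and 16 were absent from the table under that symbol.

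**Figure D3:**
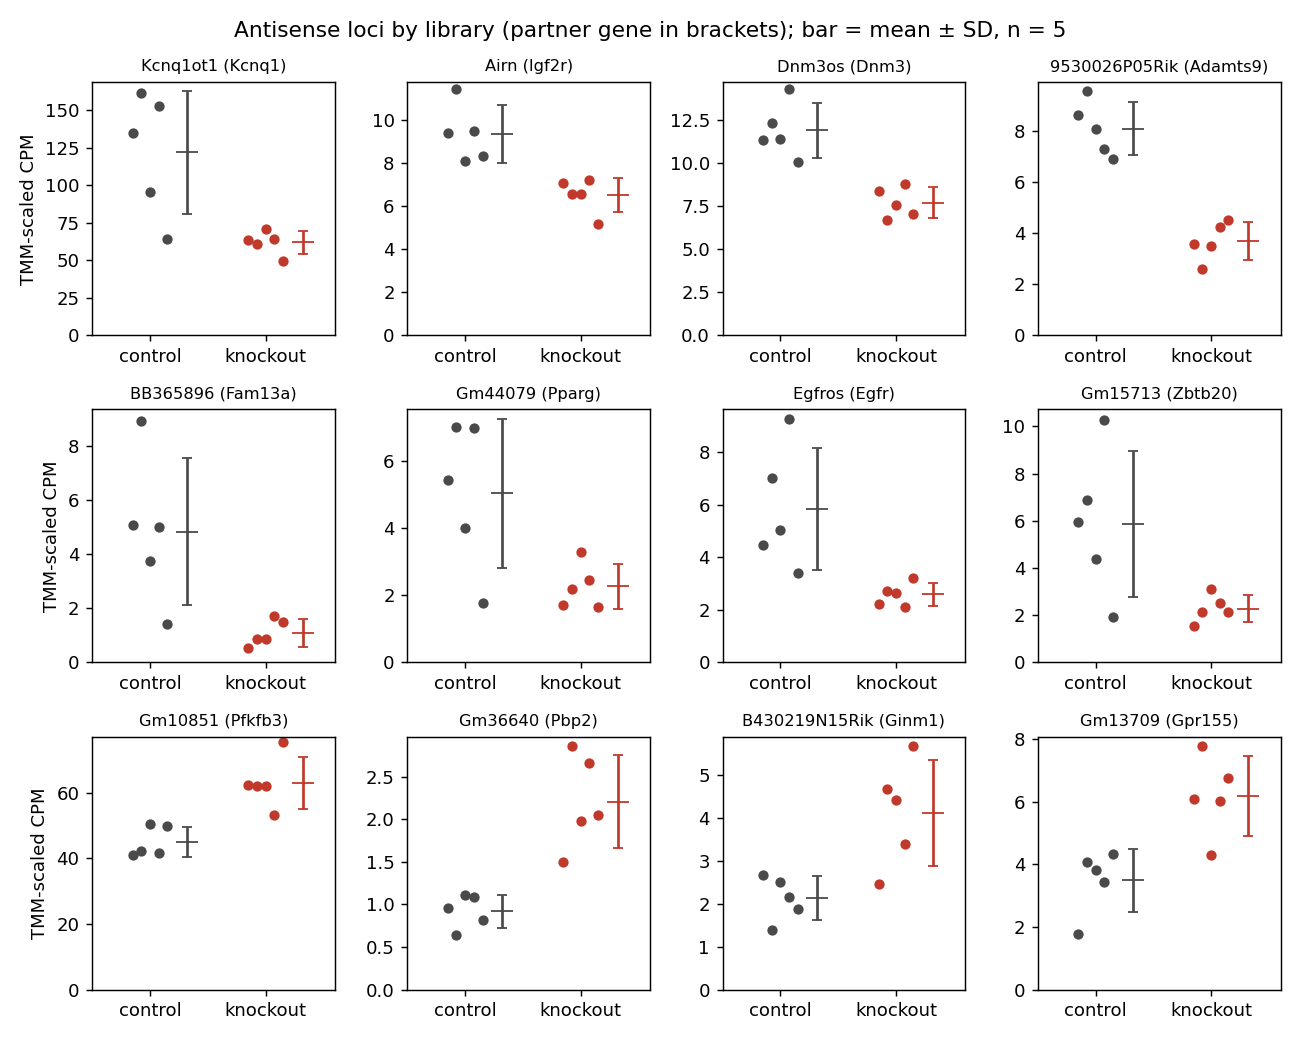
TMM-scaled CPM (vertical axes) of 12 antisense loci in each of 5 control (grey) and 5 knockout (red) libraries, with the mean ± SD beside the points and the partner gene in brackets. The upper 8 loci are lower in the knockouts, without overlap for Airn, Dnm3os, 9530026P05Rik and Egfros, and the lower 4 are higher, without overlap for Gm10851 and Gm36640.

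Of the partners on a list of fat cell and lipid genes, 3 had an antisense member, and 2 of these members fell. Gm44079 (ENSMUSG00000108141), the RNA in a Pparg intron whose sequence is printed above, was at 5.42, 7.0, 4.0, 6.96 and 1.76 CPM in the controls and at 1.72, 2.19, 3.3, 2.46 and 1.64 CPM in the knockouts. Controls 1 to 4 lay above every knockout and control 5 among them. Its log2 fold change was -1.15 (adjusted p = 0.04, SE 0.33), and it was called in 3 of the 10 fits that leave out a library. Pparg was at 274 and 250.2 CPM and was not called (log2 fold change -0.13, adjusted p = 0.35, SE 0.09). With the intronic score as a covariate the log2 fold change of Gm44079 was 0.23 (adjusted p = 0.82).

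Gm45470 (ENSMUSG00000109674, chr8:27228686-27240332, + strand) lies opposite Adrb3, the beta-adrenergic receptor of fat cells. It was at 10, 6.94, 2.83, 4.19 and 2.4 CPM in the controls and at 0.977, 1.34, 2.7, 1.66 and 3.15 CPM in the knockouts, and the ranges overlapped. Its log2 fold change of -1.43 (adjusted p = 0.042, SE 0.42) was close to that of Adrb3, which went from 40.5 to 14.2 CPM (log2 fold change -1.52, adjusted p = 0.036, SE 0.42). The difference in their log2 ratio was 0.11 (exact permutation p = 0.65). Gm45470 was called in 2 of the 10 fits without a library, with adjusted p up to 0.12. Gm45091, at the start of Cebpa, another regulator of fat cell formation, had a log2 fold change of -0.52 (adjusted p = 0.099, SE 0.20) and Cebpa of -0.04, neither called.

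The other lists of partners gave 0 calls, but they held few tested members. Of all tested members 11.8% were called, so 0 calls among so few is near that share. No member had its partner, the gene with the most overlapping bases, on the list of Wnt genes or of clock genes. A clock gene was overlapped by 1 member whose partner, with more overlapping bases, was another gene. The lists of fat cell and lipid genes and of homeobox and developmental regulators each had 1 such member too. These members were counted only with their partner. On the list of homeobox and developmental regulators 7 members had their partner, 5 were tested by edgeR with 0 called (1 at an unadjusted p below 0.05), and their median log2 fold change was -0.02. On the list of vessel and immune genes, Gm12000 of the lymphocyte regulator gene Ikzf1 was not called, with a log2 fold change of 0.53 (adjusted p = 0.5, SE 0.50).

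The largest fall among the members called was that of BB365896 (ENSMUSG00000092323), in an intron of Fam13a. It was at 5.06, 8.91, 3.75, 5.0 and 1.41 CPM in the controls and at 0.517, 0.851, 0.858, 1.73 and 1.51 CPM in the knockouts, and control 5 lay within the range of the knockouts. The log2 fold change was -2.15 (adjusted p = 0.013, SE 0.43). Fam13a fell too, from 59.2 to 26.7 CPM (log2 fold change -1.15, adjusted p = 0.032, SE 0.31). The ratio of the 2 differed by -0.51 (exact permutation p = 0.095).

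Pard3bos1 and Mecomos, inside the cell polarity gene Pard3b and the zinc finger regulator gene Mecom, fell together with their partners. Pard3bos1 (ENSMUSG00000085842, chr1:61767415-61851540, - strand) was at 1.55, 2.55, 1.11, 3.24 and 1.23 CPM in the controls and at 0.46, 0.669, 0.726, 0.332 and 0.274 CPM in the knockouts. The groups did not overlap, and the log2 fold change was -1.94 (adjusted p = 0.011, SE 0.37) beside -0.38 (adjusted p = 0.011, SE 0.07) for Pard3b. The knockout values of Pard3bos1, 0.274 to 0.726 CPM, rest on few counts, since 3 counts were 0.169 to 0.214 CPM. The log2 ratio of Pard3bos1 to Pard3b differed by -0.87 (exact permutation p = 0.0079), a size that the pseudocount of 0.5 CPM makes smaller at such low levels. Mecomos ranged over 0.469 to 2.8 CPM among controls (median 1.41) and 0.304 to 0.792 CPM among knockouts (median 0.597), with a log2 fold change of -1.45 (adjusted p = 0.04, SE 0.42) beside -0.62 (adjusted p = 0.0061, SE 0.10) for Mecom, and it was called in 1 of the 10 fits that leave out a library.

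Zbtb20, a zinc finger repressor gene, holds 2 antisense members that fell with it. Gm9968 (ENSMUSG00000055370, chr16:43345887-43363666, - strand) was at 6.19, 7.77, 4.61, 8.72 and 3.22 CPM in the controls and at 2.87, 2.07, 2.97, 3.12 and 2.4 CPM in the knockouts, with no overlap and a log2 fold change of -1.18 (adjusted p = 0.015, SE 0.25). Gm15713 (ENSMUSG00000085499, chr16:43410518-43420196, - strand), whose promoter window is printed above, was at 5.95, 6.88, 4.36, 10.3 and 1.93 CPM and at 1.55, 2.13, 3.1, 2.52 and 2.12 CPM, with control 5 among the knockouts and a log2 fold change of -1.36 (adjusted p = 0.028, SE 0.35). Both members share the partner, which went from 274 to 204 CPM (log2 fold change -0.43, adjusted p = 0.025, SE 0.11), so they are not independent of each other. With the intronic score as a covariate, Gm15713 had 0.03 and Gm9968 -0.20, neither called.

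In other pairs the antisense locus fell and the partner did not pass the test. Egfros (ENSMUSG00000085091, chr11:16815431-16830702, - strand), inside the epidermal growth factor receptor gene Egfr, was at 4.46, 7.0, 5.04, 9.26 and 3.4 CPM in the controls and at 2.24, 2.74, 2.64, 2.12 and 3.22 CPM in the knockouts. Every control lay above every knockout, and the log2 fold change was -1.17 (adjusted p = 0.016, SE 0.25). Egfr was at 202 and 201 CPM (log2 fold change -0.01, adjusted p = 0.96, SE 0.10). The log2 ratio of Egfros to Egfr differed by -0.96 (exact permutation p = 0.0079).

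Gm26789, inside the ubiquitin ligase gene Herc4, was at 3.57, 4.97, 3.2, 3.52 and 3.34 CPM in the controls and at 2.36, 1.28, 1.72, 2.26 and 1.71 CPM in the knockouts. The groups did not overlap, and its log2 fold change was -0.99 (adjusted p = 0.013, SE 0.20) beside 0.01 (adjusted p = 0.89, SE 0.05) for Herc4. Gm28988, inside the nuclear import receptor gene Ipo11, ranged over 0.762 to 1.66 CPM among controls (median 1.49) and 0.342 to 0.73 CPM among knockouts (median 0.462) without overlap and had a log2 fold change of -1.42 (adjusted p = 0.014, SE 0.29) beside -0.05 (adjusted p = 0.61, SE 0.06) for Ipo11. Prkag2os2, inside the gene of a regulatory subunit of the energy sensor AMPK, ranged over 0.996 to 1.27 CPM among controls (median 1.08) and 0.274 to 0.747 CPM among knockouts (median 0.426) without overlap and had a log2 fold change of -1.17 (adjusted p = 0.021, SE 0.27) beside -0.07 (adjusted p = 0.5, SE 0.07) for Prkag2. Gm28988 and Prkag2os2 were below 2 CPM in every library.

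The remaining large falls were of loci with overlapping ranges or low levels. Gm9984, in the receptor phosphatase gene Ptprm, had a log2 fold change of -1.24 (adjusted p = 0.024, SE 0.30), and Gm34408, in the ether lipid enzyme gene Agmo, had a log2 fold change of -1.33 (adjusted p = 0.025, SE 0.33). Gm12195, in Tbc1d9b, had a log2 fold change of -1.30 (adjusted p = 0.028, SE 0.34) from 1.01 CPM in controls. Gm16984, at the end of the fatty acid oxidation gene Eci2, had a log2 fold change of -1.27 (adjusted p = 0.026, SE 0.32) from 0.984 CPM, and knockout 1 stood apart at 0.747 CPM. Gm26674, at the start of the scaffold gene Sash1, was at 0.714, 0.828, 0.861, 0.811 and 0.938 CPM in the controls and at 0.23, 0.304, 0.33, 0.664 and 0.342 CPM in the knockouts. These ranges did not overlap, with a log2 fold change of -1.15 (adjusted p = 0.027, SE 0.29), and this locus missed the threshold when no filter on low counts was used (adjusted p = 0.082).

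Falls were also seen at loci whose own bases lie mostly outside other genes. These 3 were chosen after their values were seen, from those called in every fit that leaves out a library. 9530026P05Rik (ENSMUSG00000097462, chr6:92940329-93272979, + strand) runs from the start of the extracellular protease gene Adamts9 over a long stretch on the other strand, and 8.37% of its own bases lie inside another gene. It was at 8.63, 9.55, 8.05, 7.3 and 6.92 CPM in the controls and at 3.56, 2.61, 3.5, 4.25 and 4.52 CPM in the knockouts, with no overlap and a log2 fold change of -1.13 (adjusted p = 0.002, SE 0.16). Adamts9 fell from 74 to 53.2 CPM (log2 fold change -0.48, adjusted p = 0.029, SE 0.12).

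A530020G20Rik (ENSMUSG00000097124, chr3:121531619-121536206, + strand), at the start of Slc44a3, a gene of the choline transporter-like family, has 9.93% of its own bases inside another gene. It was at 10.1, 9.68, 7.07, 8.92 and 4.63 CPM and at 2.59, 4.07, 4.16, 4.38 and 3.76 CPM, again without overlap, with a log2 fold change of -1.09 (adjusted p = 0.011, SE 0.21). Gm13111 (ENSMUSG00000085069, chr4:154637576-154644724, + strand) has no protein-coding gene on the other strand and 0 own bases inside another gene. It was at 14, 10.1, 8.3, 8.86 and 8.56 CPM in the controls and at 6.49, 4.86, 5.21, 3.92 and 5.07 CPM in the knockouts, every knockout below every control, with a log2 fold change of -0.96 (adjusted p = 0.0078, SE 0.17).

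Rises were fewer, and all 8 members called higher are given here. Only Gm10851 and Gm36640 were called in all 10 fits that leave out a library. Gm13709 and Gm20632 were called in 4 of them, and Gm44026, B430219N15Rik, Gm13703 and Gm6277 in 5. Gm10851 (ENSMUSG00000102329, chr2:11521706-11530836, + strand), inside Pfkfb3, which makes an activator of glycolysis, was at 41, 42.3, 50.3, 41.5 and 49.8 CPM in the controls and at 62.4, 61.9, 62, 53.2 and 75.3 CPM in the knockouts. Every knockout lay above every control, with a log2 fold change of 0.48 (adjusted p = 0.011, SE 0.09). Pfkfb3 was at 609 and 529 CPM and was not called (log2 fold change -0.20, adjusted p = 0.38, SE 0.15), and the log2 ratio of the pair was higher by 0.69 (exact permutation p = 0.024).

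Gm36640 (ENSMUSG00000108276, chr6:135289359-135341684, + strand), which contains the lowly expressed gene Pbp2 on the other strand, was at 0.952, 0.637, 1.11, 1.08 and 0.821 CPM in the controls and at 1.49, 2.86, 1.98, 2.65 and 2.05 CPM in the knockouts. The groups did not overlap, with a log2 fold change of 1.26 (adjusted p = 0.0096, SE 0.23), the largest rise. B430219N15Rik, inside Ginm1, was at 2.68, 1.4, 2.52, 2.16 and 1.88 CPM and at 2.47, 4.68, 4.42, 3.39 and 5.68 CPM. Its ranges overlapped through controls 1 and 3 and knockout 1, with a log2 fold change of 0.95 (adjusted p = 0.026, SE 0.24) beside 0.12 (adjusted p = 0.34, SE 0.08) for Ginm1. Gm44026, inside Wipf3, a gene of the actin cytoskeleton, had a log2 fold change of 1.17 (adjusted p = 0.03, SE 0.31) from 1.11 CPM, and every knockout lay above every control.

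Gm13703 and Gm13709 lie side by side in Gpr155, a gene of a membrane protein, and rose together. Gm13709 (chr2:73370909-73379297, + strand) was at 1.79, 4.07, 3.81, 3.45 and 4.34 CPM in the controls and at 6.09, 7.78, 4.29, 6.04 and 6.78 CPM in the knockouts, which overlapped in control 5 and knockout 3 only, with a log2 fold change of 0.83 (adjusted p = 0.033, SE 0.22). Gm13703 (chr2:73357268-73364333, + strand) ranged over 1.79 to 3.14 CPM among controls (median 2.34) and 3.01 to 7.17 CPM among knockouts (median 4.14), with a log2 fold change of 0.86 (adjusted p = 0.042, SE 0.25). Gpr155 was at 25.6 and 23.5 CPM (log2 fold change -0.12, adjusted p = 0.43, SE 0.10). The log2 ratio to Gpr155 was higher by 0.83 (exact permutation p = 0.0079) for Gm13703 and by 0.89 (exact permutation p = 0.016) for Gm13709, 2 values that share a partner.

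The last 2 rises were small. Gm20632, which contains the histone gene Hist2h2aa2 (0 CPM in both groups, and of a family with near-identical copies), ranged over 4.01 to 5.12 CPM among controls (median 4.4) and 5.44 to 7.87 CPM among knockouts (median 5.65) without overlap, with a log2 fold change of 0.53 (adjusted p = 0.033, SE 0.14). Gm6277, at the start of the kinase substrate gene Cables1, ranged over 14.7 to 17.4 CPM among controls (median 16) and 17 to 23.6 CPM among knockouts (median 21.2), with a log2 fold change of 0.38 (adjusted p = 0.026, SE 0.09) beside 0.07 (adjusted p = 0.63, SE 0.09) for Cables1.

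Members and partners had log2 fold changes of the same sign in 241 of 409 pairs (58.9%). In these pairs 322 members and 228 partners were lower in the knockouts, and such margins alone would give 53.3% of the same sign. In 191 pairs both were lower in the knockouts and in 50 both higher, in 131 the member was lower and the partner higher, and in 37 the reverse. Across pairs, which share the 10 libraries and for 24 members the partner, Pearson's r between their log2 fold changes was 0.38 and Spearman's rho 0.30. The member's value was below the partner's in 320 pairs, with a median difference of -0.30. Over partners counted once, 12 of 415 were called higher (2.89%) and 39 lower (9.40%), against 6.62% and 5.75% of all protein-coding genes. The median of the partners was -0.02, and their mean log2 level was 5.29 in knockouts and 5.33 in controls, so the partners also leaned downward, by less than the members.

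By calls, 13 pairs had member and partner both lower, 29 a lower member with a partner not called and 6 a higher member with a partner not called. In 0 pairs were the calls of opposite sign. The partner alone was called with 13 higher and 28 lower. These counts do not show that a pair moved apart, and the ratio of member to partner was tested for that. After adjustment over the 409 pairs the exact permutation test called 0, with 79 pairs at an unadjusted p below 0.05. The smallest p that the test can give, 0.0079, was reached by 23 pairs (5.62%), and at least 65 pairs at that value would have been needed for any to pass.

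Among the pairs at the smallest p, the largest differences of the log2 ratio were those of Egfros (-0.96), Gm26674 (-0.92), Pard3bos1 (-0.87), Gm26789 (-0.85) and Gm13703 (0.83), and that of 5430402O13Rik (0.75). These sizes and their order hold for the pseudocount of 0.5 CPM, which shrinks differences at loci of low level. In 5430402O13Rik the partner carried the difference: 4921507P07Rik fell from 1.49 to 0.792 CPM (log2 fold change -0.90, adjusted p = 0.033, SE 0.24), and the antisense locus was at 0.735 and 0.862 CPM and was not called.

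**Figure D4:**
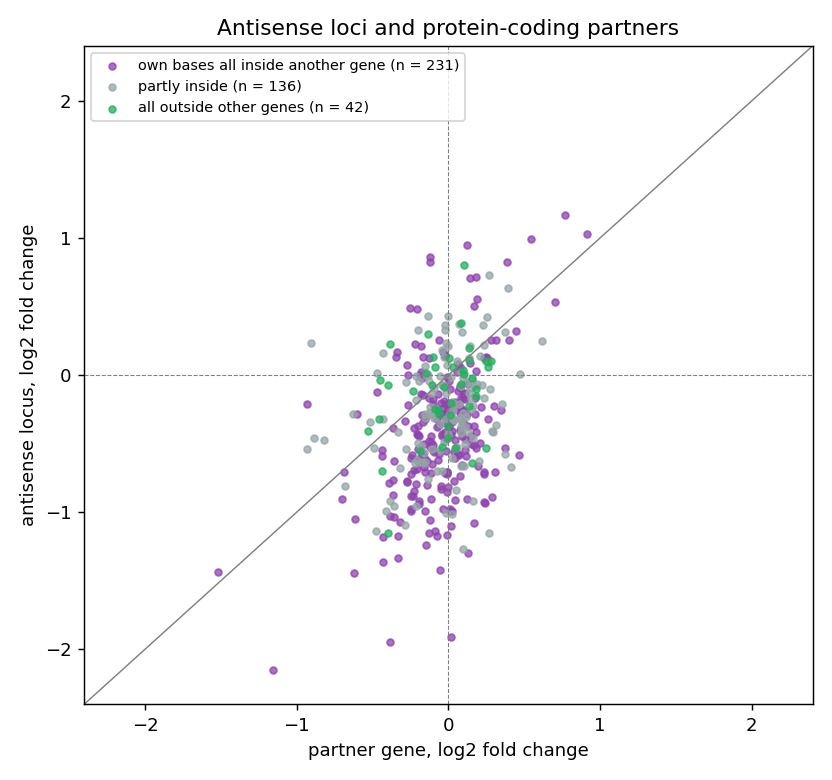
Log2 fold change (knockout against control) of each antisense locus (vertical axis) against that of its protein-coding partner (horizontal axis) for 409 pairs, coloured by where the locus's own bases lie. The solid line marks equal change, and 320 of the 409 points lie below it; the 42 loci outside other genes have a median of -0.08 and the 231 inside -0.44.

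A closer comparison was possible in 19 genes that hold an antisense member and also tested TEC or sense_intronic loci on the gene's own strand. These TEC or sense_intronic loci are called intronic loci here. The antisense loci had a median log2 fold change of -0.55, the intronic loci of the same genes -0.77 and the genes themselves -0.20. Gm49354, which holds Etohd2, had no log2 fold change of its own and is missing from the values of the genes. Across these genes the antisense values went with those of the intronic loci (Pearson's r 0.78, Spearman's rho 0.64) more than with those of the gene (0.51 and 0.44, without Gm49354). The difference between these correlations, which do not rest on quite the same genes, was not tested. In Pard3b and Mecom, the antisense loci had -1.94 and -1.45 and the intronic loci -1.47 and -1.42. In Pfkfb3, where the gene had -0.20, the antisense locus Gm10851 had 0.48 and the intronic locus 0.51. In Camk2d and Wdfy3 they differed, with -0.21 and -0.43 for the antisense loci and -1.10 and -1.20 for the intronic loci. The points share their 10 libraries.

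**Figure D5:**
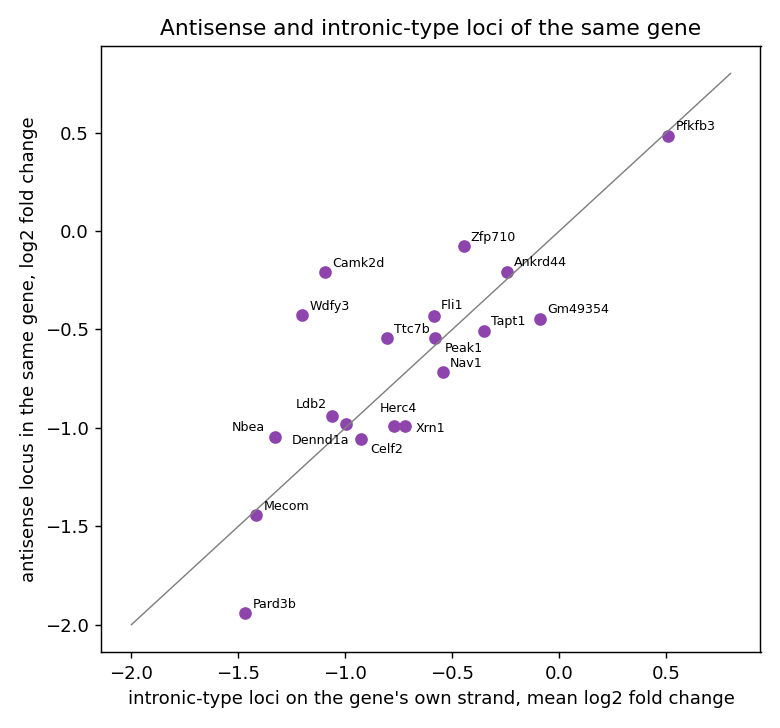
Log2 fold change of the antisense locus (vertical axis) against the mean log2 fold change of TEC or sense_intronic loci on the gene's own strand (horizontal axis) in 19 genes, each labelled by the gene that holds them. The line marks equal change; Pfkfb3 is high on both axes (0.51 and 0.48), Pard3b and Mecom are low on both, and Camk2d and Wdfy3 lie above the line.

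Promoter windows were at hand for 152 of the 478 members, with a RefSeq start within 300 bases of the GENCODE start. The letters CTTTGAT or CTTTGAA on either strand, the core that factors of the Tcf and Lef family bind, were in 10 of them (6.58%), against 7.71% of 16141 windows of all genes. None of the 10 belonged to a member called changed, and the 13 windows of members called lower held 0. Of the 135 tested members whose window lacked these letters, 1 was called higher and 13 lower. At these shares, 10 and 13 windows are too few for a count of 0 to show a difference. Windows were called CpG rich when GC content was above 50% and CG dinucleotides were above 0.6 of the number expected from C and G content. Of the 13 windows of members called lower 1 was CpG rich (7.69%), against 58 of 131 (44.3%) of members tested and not called. The split followed position: 14 of 68 windows (20.6%) were CpG rich for members inside other genes and 21 of 24 (87.5%) for members outside. Members with a CpG-rich window had a median log2 fold change of -0.08 (59 tested) and the others -0.28 (86 tested), and the share of this that goes with position was not tested.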

How the data were processed

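Total RNA of inguinal fat was sequenced after removal of ribosomal RNA with a strand-marking kit, per the labels' protocols. The values are raw counts of reads per gene, the whole numbers of the table deposited by the authors for all libraries. STAR 2.5.2b, featureCounts 1.5.1, DESeq2 1.16.0 and GRCm38 appear per the submitters' processing notes. Neither the annotation release nor the strand setting is given in the sources used here; strand use was examined from the counts. Libraries held 14032866 to 17782073 counts. A floor of 3 counts was 0.169 to 0.214 CPM, for counting error only, since reads without molecular identifiers are not independent molecules. Pairs of libraries of a group differed beyond sampling noise (chi-square per degree of freedom 6.57 to 26.2 over 20 pairs).

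Gene types, strands and overlaps came from GENCODE M21. The partner was the protein-coding gene on the other strand with the most overlapping bases, and 63 members overlapped several such genes. Genes were filtered with filterByExpr by group, scaled with TMM factors and tested in edgeR 4.0.16 (R 4.3.3) with the two-sided quasi-likelihood test, with Benjamini-Hochberg adjustment over 15927 genes. The log2 ratio of member to partner (pseudocount 0.5 CPM) was tested by a two-sided exact permutation over all divisions of the libraries into 5 and 5, adjusted over 409 pairs. On simulated data over 15927 genes the edgeR step recovered 59% of 1.5-fold and 74% of 2-fold changes with 2 false calls. The changed genes were drawn from all tested genes, whose median in controls was 16.4 CPM against 1.49 CPM for the members. Counts were simulated without shifts shared by the genes of a library. The simulation therefore does not give the recovery or the false calls among the members. Alternatives were DESeq2 1.42.0, limma 3.58.1 with voom quality weights, RLE scaling, no filter, stricter overlaps, another pseudocount, an intronic score as covariate and each library left out. A permutation test planned for the summed antisense share was not used, since the members were chosen with results known. The rule for named genes took up to 12 rises and 12 falls largest in log2 fold change among called members whose average log2 CPM was -1 or more, the 6 largest ratio differences at the smallest p, members of the list of known names, and called members of the partner lists; others are marked in the text as chosen after their values were seen. The members and the lists were chosen with earlier results of these data known. Promoter windows came from RefSeq on GRCm38.p6. A single-locus result that the rule names is not reported here.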

Additional observations from a re-analysis of the deposited data

Results flagged for a closer look

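In 5 of 70 groups of 5 libraries examined for the named loci, a single library lay far from the other 4 by Dixon's criterion (gap over range above 0.71), and chance gives this in about 1 in 20 groups. Gm44026 in the Wipf3 locus was at 0.595 CPM in control 1, below the other controls from 1.15 CPM up. Gm16984 at the end of Eci2 was at 0.747 CPM in knockout 1, above the other knockouts up to 0.342 CPM. Gm26674 at the start of Sash1 was at 0.664 CPM in knockout 4, above the others up to 0.342 CPM. Gm26789 in Herc4 was at 4.97 CPM in control 2, above the others up to 3.57 CPM. Emx2os was at 2.42 CPM in control 2, above the others up to 1.61 CPM.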

How the results depend on the processing

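No paired analysis was possible because replicate numbers follow record order alone, so they pair no control with a knockout. The count of changed members (54) was 58 with DESeq2, 55 with RLE scaling and 50 without a filter on low counts. It was 97 with limma-voom and quality weights, 0 with the intronic score as covariate, 23 of 151 among members that share no exonic base with any gene, and 4 of 65 among those with own bases outside other genes, an alternative added after seeing the data. Leaving out each library gave 16 to 106. The count of changed partners (51) was 97 with limma-voom and quality weights, 2 with the covariate and 30 of 273 when exons had to overlap, and 13 to 80 with a library left out. The ratio of member to partner gave 0 calls in every setting run, where the number of splits limits the test. The size of its differences depended on the pseudocount, with a median of -0.21 at 0.5 CPM and -0.11 at 2 CPM. With the covariate the named loci Gm15713 and Gm44079 turned to 0.034 and 0.23 (adjusted p = 0.99 and 0.82), 25 more of the 27 called named loci missed the threshold, and the cause was not tested. DESeq2 and RLE scaling changed 0 of the 34 named loci, and in the 10 fits that leave out a library, which give 340 values for the 34 loci, 95 values of the 27 called loci missed the threshold and 0 reversed. Members have low counts, which limits calls of small differences.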
